A study of Homo sapiens with 9 samples.

Results

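The 5 human RecQ helicases (BLM, WRN, RECQL, RECQL4 and RECQL5) and 3 partners of BLM (TOP3A, RMI1 and RMI2) were described in KHM-5M cells treated with YK-4-279. These 8 genes were chosen by name from the 58735 genes of the deposited table, of which 19951 are protein-coding, and all 8 passed the filter on low counts in every comparison. KHM-5M, a line grown from human thyroid cancer, carries mutations in BRAF and in the TERT promoter. YK-4-279 is a small molecule used as an inhibitor of ETS transcription factors. The cells were kept for 24 h with DMSO, with 0.3 µM YK-4-279 or with 1 µM YK-4-279, and mRNA was sequenced from 3 samples in each of the 3 groups, so that every group shares the same cell line and the DMSO group carries the solvent alone. RNA-seq of this kind reads mRNA of the whole culture, in which fewer cells that express a gene and less RNA per cell cannot be told apart.

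RecQ helicases unwind DNA and act where replication stalls or where a break is repaired by homologous recombination. BLM works with the type IA topoisomerase TOP3A and the OB-fold proteins RMI1 and RMI2 in a complex called the dissolvasome, which takes apart double Holliday junctions without crossing over. Inherited loss of BLM causes Bloom syndrome, loss of WRN causes Werner syndrome, and changes in RECQL4 cause Rothmund-Thomson syndrome. RECQL, also called RECQ1, restarts reversed replication forks, and RECQL5 binds RNA polymerase II and limits recombination.

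The samples held 16903251 to 18238884 counts each. A gene with no read could still have had up to 3 counts, which is 0.164 to 0.177 on the CPM scale (counts relative to the library total), and this floor reflects counting error alone. The thyroid transcription factors PAX8 (21.6 to 27.7 FPKM) and HHEX (5.12 to 7.49 FPKM) were present, whereas 7 of 9 thyroid markers averaged under 1 FPKM. FPKM is the count per kilobase of transcript, scaled to the library's reads. The epithelial keratins KRT8 and KRT18 were high (183 to 204 and 125 to 141 FPKM), and the adhesion gene CDH1 had 0 to 5 counts. All 5 immune markers and all 4 endothelial markers averaged under 1 FPKM, with summed immune levels of 0.254 to 0.663 FPKM in DMSO, 0.242 to 0.645 at 0.3 µM and 0.940 to 1.13 at 1 µM, led by CD14. Of 5 fibroblast markers, 3 averaged under 1 FPKM, and the summed level was 42.7 to 59.2 FPKM in DMSO, 35.8 to 54.1 at 0.3 µM and 38.0 to 43.5 at 1 µM, mostly COL1A1. The part of these markers in the results was not tested.

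At 1 µM YK-4-279, BLM and RECQL4 fell and the other 6 genes did not pass the test. BLM fell by 26.4% and RECQL4 fell by 23.1% against DMSO, and for both all 3 treated samples lay below all 3 DMSO samples. At 0.3 µM none of the 8 passed. The study itself described DNA helicase genes as lower at 1 µM, from the RNA-seq of KHM-5M cells that these data come from. The direction of BLM and RECQL4 here is therefore not independent evidence.

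**Figure D1:**
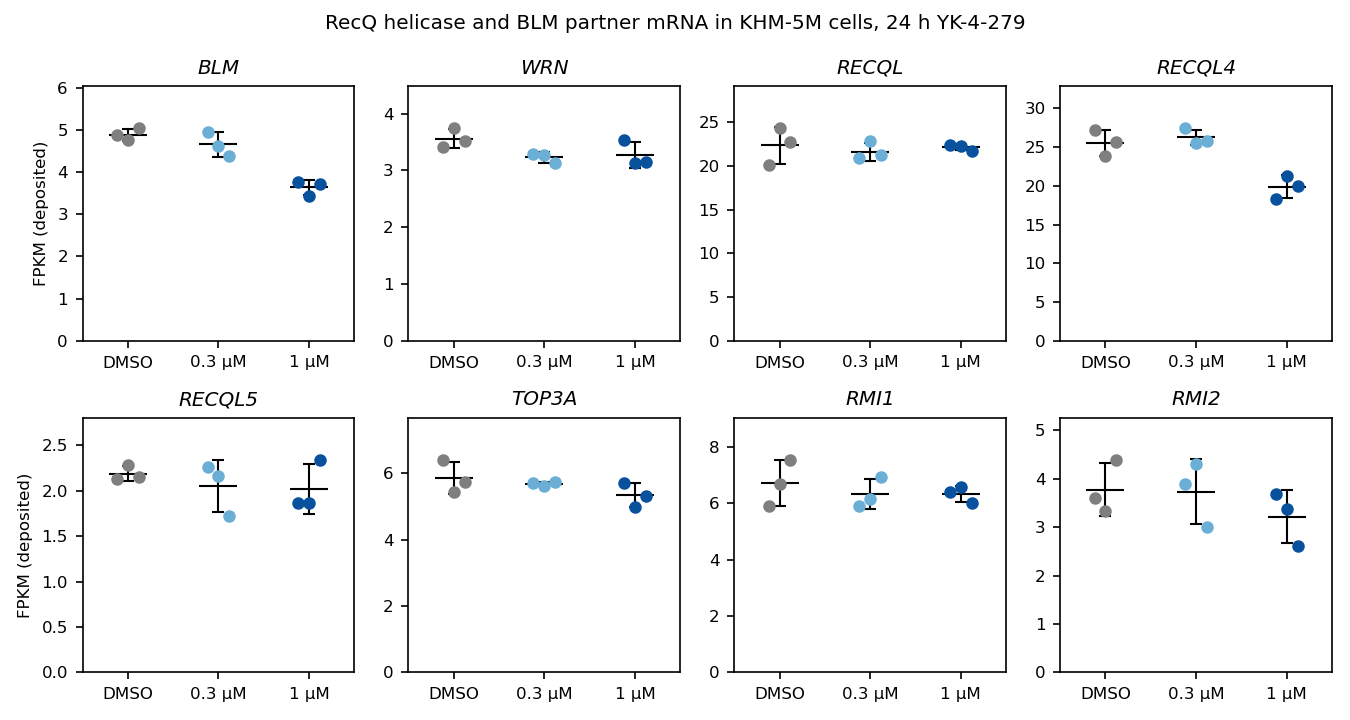
Deposited FPKM of each gene (y axis, from 0, scaled per gene) in the 3 samples of DMSO, 0.3 µM and 1 µM YK-4-279; points are samples, horizontal lines the mean and bars the SD (n = 3). The 1 µM samples of BLM (3.44 to 3.76) and RECQL4 (18.4 to 21.3) sit below all DMSO samples, and the points of the other 6 genes overlap between these groups.

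BLM lies on chromosome 15 of GRCh38, from 90717327 to 90816165 on the plus strand (ENSG00000197299). Its level was 4.87, 4.75 and 5.03 FPKM in DMSO, 4.96, 4.63 and 4.38 at 0.3 µM, and 3.76, 3.44 and 3.72 at 1 µM. The 1 µM samples were thus the 3 lowest of the 9, and the 0.3 µM samples overlapped DMSO. The group means were 4.88 ± 0.141, 4.65 ± 0.291 and 3.64 ± 0.175 FPKM (SD, n = 3), and the counts behind them ran from 397 to 591. The log2 fold change at 1 µM against DMSO was -0.44 (SE 0.079, 95% interval -0.61 to -0.27), with a p of 0.00192 by edgeR (quasi-likelihood) after Benjamini-Hochberg adjustment over 15617 genes.

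RECQL4, which also has a role in starting replication, lies on chromosome 8 from 144511288 to 144517845 on the minus strand (ENSG00000160957). Its level was 27.2, 23.8 and 25.6 FPKM in DMSO, 27.4, 25.5 and 25.8 at 0.3 µM, and 18.4, 21.3 and 19.98 at 1 µM. The 1 µM samples were again the 3 lowest, while 0.3 µM and DMSO overlapped. The log2 fold change at 1 µM against DMSO was -0.38 (SE 0.072, 95% interval -0.53 to -0.23), with an adjusted p of 0.00270 by edgeR. Neither gene reached a 1.5-fold fall, the size of cutoff that the study used. Of all genes tested, 4.14% were lower by at least 1.5-fold and also had an adjusted p under 0.05. A larger fall than that of BLM was fitted for 12.4% of the genes tested, and a larger fall than that of RECQL4 for 14.6%.

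The other 3 helicases did not pass at 1 µM. WRN, which has an exonuclease beside its helicase (chromosome 8, 31033801 to 31173769, plus strand, ENSG00000165392), measured 3.41, 3.74 and 3.52 FPKM in DMSO and 3.53, 3.13 and 3.15 at 1 µM, so that the groups overlapped. Its log2 fold change was -0.14 (95% interval -0.34 to 0.060, adjusted p = 0.329 by edgeR). RECQL (chromosome 12, 21468911 to 21501669, minus strand, ENSG00000004700) measured 20.1, 24.3 and 22.8 FPKM in DMSO and 22.5, 22.3 and 21.8 at 1 µM, and the treated samples fell inside the DMSO range. Its log2 fold change was -0.031 (95% interval -0.18 to 0.12, adjusted p = 0.807), an interval that leaves out falls as large as the one fitted for BLM or RECQL4. RECQL5 (chromosome 17, 75626845 to 75667189, minus strand, ENSG00000108469) was the lowest of the 8, at 2.13, 2.28 and 2.15 FPKM in DMSO and 1.86, 1.86 and 2.34 at 1 µM. Of the treated samples 1 lay above and 2 lay below all DMSO samples, and the log2 fold change was -0.13 (95% interval -0.36 to 0.094, adjusted p = 0.422).

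The 3 partners of BLM did not pass either. TOP3A, the strand-passing enzyme of the complex (chromosome 17, 18271428 to 18315007, minus strand, ENSG00000177302), measured 6.40, 5.44 and 5.74 FPKM in DMSO and 5.72, 4.98 and 5.33 at 1 µM. Its log2 fold change was -0.15 (95% interval -0.33 to 0.032, adjusted p = 0.246 by edgeR), with overlapping groups. RMI1, which stimulates the topoisomerase (chromosome 9, 83980711 to 84004074, plus strand, ENSG00000178966), measured 5.91, 6.68 and 7.54 FPKM in DMSO and 6.40, 6.57 and 5.999 at 1 µM, all 3 inside the DMSO range. Its log2 fold change was -0.10 (95% interval -0.31 to 0.11, adjusted p = 0.519). RMI2, which binds RMI1 and stabilizes the complex (chromosome 16, 11249619 to 11381662, plus strand, ENSG00000175643), measured 3.61, 3.34 and 4.39 FPKM in DMSO and 3.68, 3.37 and 2.60 at 1 µM. It had the widest interval of the 8 at a log2 fold change of -0.24 (-0.55 to 0.057, adjusted p = 0.254), which includes a fall as large as that of BLM.

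Counted over the 8 genes, 2 were lower and 0 higher at 1 µM with an adjusted p under 0.05, beside 9.95% of all genes tested called lower and 7.67% called higher. All 3 treated samples lay below all 3 DMSO samples for 2 of the 8 genes and for 19.1% of all genes tested. The fitted log2 fold change was below 0 for all 8, with a median of -0.14 against -0.0083 over all genes tested. These shares are given as a description, and nothing particular to the 8 genes is read from them.

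**Figure D2:**
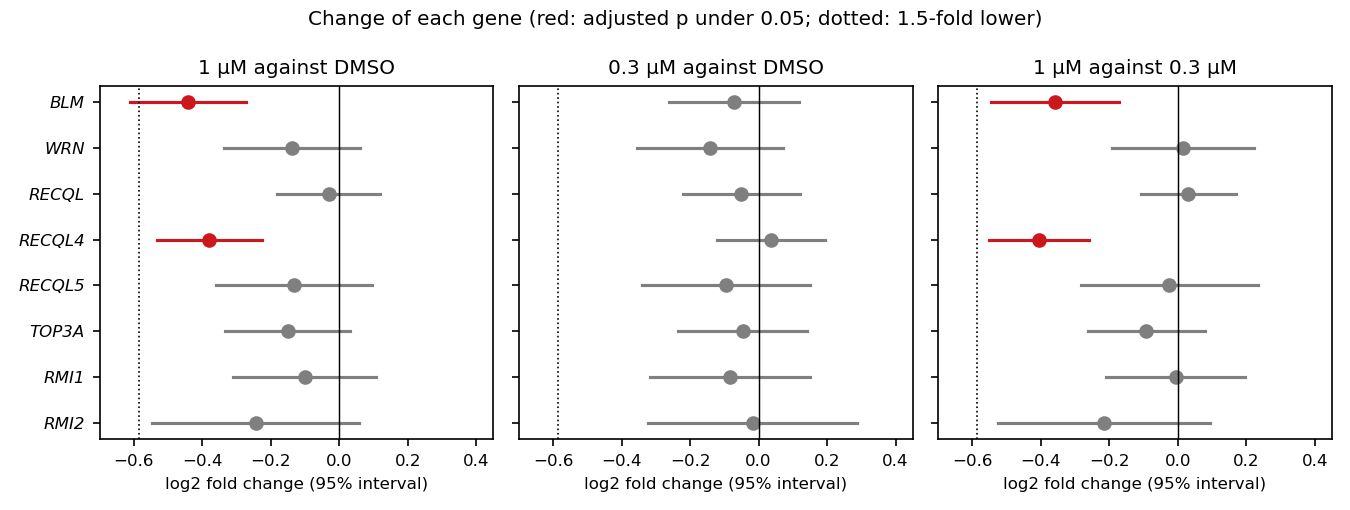
Fitted log2 fold change (x axis) of each gene in the 3 comparisons, with 95% intervals from edgeR; red marks an adjusted p under 0.05 and the dotted line a fall of 1.5-fold. BLM (-0.44) and RECQL4 (-0.38) are red at 1 µM against DMSO, and no gene is red at 0.3 µM against DMSO.

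At 0.3 µM against DMSO, 0 of the 8 genes and 0.0% of all 15762 genes tested passed by edgeR. At an unadjusted p under 0.05 there were 0 of the 8 and 594 of all genes, and DESeq2 called 0 of the 8 and 1 of all genes. The log2 fold changes ran from -0.14 for WRN to 0.036 for RECQL4. WRN measured 3.30, 3.27 and 3.12 FPKM at 0.3 µM, so that all 3 samples lay below DMSO, a separation that 5.27% of all genes tested showed in this direction. Its 95% interval was -0.35 to 0.072 (adjusted p = 0.995 by edgeR). The interval for BLM was -0.26 to 0.12 and that for RECQL4 was -0.12 to 0.19, and both leave out the changes fitted for these genes at 1 µM.

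Between the doses, BLM was lower at 1 µM than at 0.3 µM by a log2 fold change of -0.36 (SE 0.088, 95% interval -0.54 to -0.17, adjusted p = 0.0141 by edgeR) and RECQL4 by -0.40 (SE 0.069, -0.55 to -0.26, adjusted p = 0.00131). These were 2 of the 8 genes, beside 6.75% of all 15583 genes tested called lower. For both genes all 3 samples at 1 µM lay below all 3 at 0.3 µM, as for 16.1% of all genes tested. The call for BLM rested on single samples, since its adjusted p was 0.0518 without 0.3 µM replicate 1 and 0.0716 without 1 µM replicate 2. The other 6 genes had log2 fold changes from -0.22 (RMI2, 95% interval -0.52 to 0.094) to 0.031 (RECQL), and none passed. The 3 comparisons share samples in pairs, so their values are not independent of each other.

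In DMSO, RECQL4 (25.6 ± 1.69 FPKM) and RECQL (22.4 ± 2.13) had the highest levels per length, and their samples overlapped. RMI1 (6.71 ± 0.813) and TOP3A (5.86 ± 0.493) followed and also overlapped. BLM came next at 4.88 ± 0.141, above RMI2 (3.78 ± 0.545) and WRN (3.56 ± 0.166), which overlapped each other, and RECQL5 was lowest at 2.19 ± 0.0834 (SD, n = 3 for each). Among tested protein-coding genes, these levels ranged from the 28.8 percentile for RECQL5 to the 87.5 percentile for RECQL4. At 1 µM the order at the top was turned, with RECQL at 22.2 ± 0.365 FPKM and RECQL4 at 19.9 ± 1.47, without overlap. BLM at 1 µM overlapped WRN (3.27 FPKM on average) and RMI2 (3.22 FPKM on average).

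The level of BLM relative to its partners was taken within each sample, as the ratio of FPKM values. BLM to TOP3A was 0.761 to 0.877 in DMSO, 0.764 to 0.869 at 0.3 µM and 0.657 to 0.698 at 1 µM, so that the 1 µM samples lay below both other groups. BLM to RMI1 was 0.668 to 0.824, 0.630 to 0.837 and 0.523 to 0.620 in the same order, again without overlap at 1 µM. BLM to RMI2 overlapped in all groups, at 1.146 to 1.42, 1.07 to 1.46 and 1.02 to 1.43. BLM to WRN was 1.27 to 1.43 in DMSO, 1.40 to 1.503 at 0.3 µM and 1.06 to 1.18 at 1 µM. BLM to RECQL4 overlapped, at 0.179 to 0.199 in DMSO and 0.161 to 0.205 at 1 µM. The ratios rest on the same BLM values as the test above and were not tested on their own.

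**Figure D3:**
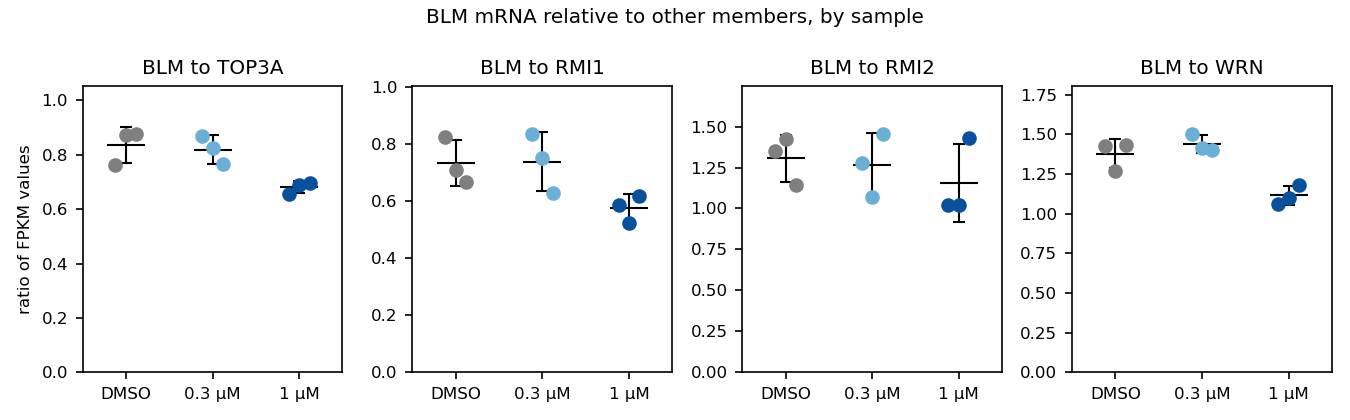
Ratio of the FPKM of BLM to that of TOP3A, RMI1, RMI2 and WRN (y axis, from 0) in each sample; horizontal lines are group means and bars the SD (n = 3). The ratio to TOP3A is 0.657 to 0.698 at 1 µM and 0.761 to 0.877 in DMSO, and the ratio to RMI2 overlaps between groups.

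Genes that act with these enzymes were taken from 6 lists of 53 genes, of which 49 were tested. At 1 µM against DMSO 19 were lower and 0 higher, beside 9.95% of all genes tested called lower and 7.67% called higher. Their median log2 fold change was -0.19, against -0.0083 over all genes tested. At 0.3 µM 0 passed by edgeR. Between the doses 14 were lower at 1 µM, beside 6.75% of all genes tested. The lists were chosen with earlier results of these data known. The shares here and for each list below are therefore a description, and nothing particular to these genes is read from them. Adjusted p-values given for these genes are by edgeR over all genes tested.

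The nucleases that cut the junctions the dissolvasome would otherwise dissolve had 2 of 5 tested genes lower, with a median of -0.35. EME1, a partner subunit of the nuclease MUS81, was lower by a log2 fold change of -0.65 (adjusted p = 0.000703), and SLX4, a scaffold for these nucleases, by -0.35 (adjusted p = 0.0194). MUS81 (-0.11), EME2 (-0.46) and GEN1 (-0.20) did not pass. SLX1A and SLX1B, near-identical copies with at most 3 and 5 counts in a sample, were not tested.

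Of 9 genes for single-strand binding and end resection, 3 were lower, with a median of -0.16. These were the nucleases DNA2 (-0.63, adjusted p = 0.000159) and EXO1 (-0.51, adjusted p = 0.00189), which resect ends together with BLM or in parallel to it, and MRE11 (-0.36, adjusted p = 0.0173). The subunits of RPA, the single-strand binding protein that BLM and WRN bind, had log2 fold changes of -0.022 (RPA1), 0.0093 (RPA2) and -0.023 (RPA3) and did not pass.

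Of 11 genes for BLM recruitment and anaphase bridges, 5 were lower, with a median of -0.18. FANCM, a fork-remodelling translocase that recruits the complex, had a log2 fold change of -0.66 (adjusted p = 0.00165) on 153 to 295 counts. RIF1 was at -0.57 (adjusted p = 0.00245), the decatenating enzyme TOP2A at -0.55 (adjusted p = 6.17e-05), TOPBP1 at -0.26 (adjusted p = 0.0100) and SPIDR at -0.21 (adjusted p = 0.0315).

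Strand exchange, the step before the junctions form, had 7 of 12 tested genes lower and a median of -0.43. BRCA2 was at -0.93 (adjusted p = 0.00631), RAD54L at -0.69 (0.000354), RAD52 at -0.56 (0.00129), RAD51AP1 at -0.50 (0.00286), XRCC3 at -0.47 (0.00425), RAD54B at -0.43 (0.0391) and BRCA1 at -0.33 (0.00417), each with its adjusted p. BRCA1, RAD52 and RAD54B overlap a gene on the same strand that averaged over 10 counts, as do TOP2A above and FEN1 below. Their counts may be divided between the genes. The overlapping gene with most counts averaged 320.2 beside 1097.0 for BRCA1, 50.7 beside 328.3 for RAD52 and 70.3 beside 175.9 for RAD54B. For FEN1 it averaged 2098.9 beside 2460.2, and for TOP2A only 11.2 beside 14224.2.

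Among 10 partners of WRN, 2 were lower, with a median of -0.032. POLD1, the catalytic subunit of a replicative polymerase, was at -0.33 (adjusted p = 0.00716) and the flap nuclease FEN1 at -0.24 (adjusted p = 0.0130). In the list of the second type IA topoisomerase, its partners TDRD3 (-0.15) and FMR1 (0.031) did not pass, and TOP3B had 3 to 11 counts in a sample and was not tested.

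**Figure D4:**
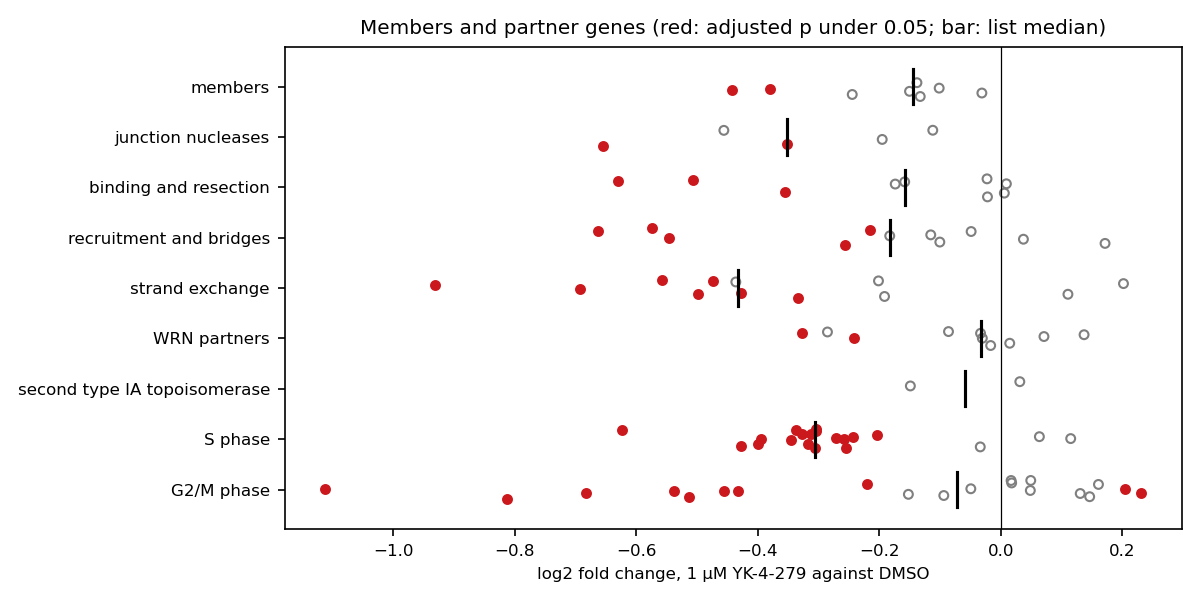
Fitted log2 fold change at 1 µM against DMSO (x axis) for the 8 genes and for each list (rows); each point is a gene, spread vertically for legibility, red points have an adjusted p under 0.05, open points do not, and black bars are list medians. The strand exchange median is -0.43 and the WRN partner median -0.032, and no red point of the 6 partner lists lies above 0.

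Cell cycle genes moved in the same samples. Of 20 S phase genes, 17 were lower at 1 µM against DMSO and 0 higher, with a median log2 fold change of -0.31, where 9.95% of all genes tested were called lower and 7.67% higher. The most abundant were MCM7 (-0.27), MCM4 (-0.30) and RRM1 (-0.24), all of which passed by edgeR. Of 20 G2/M genes, 8 were lower and 2 higher, with a median of -0.071, beside the same shares over all genes. Of the most abundant of these, CCNB1 rose (0.21, adjusted p = 0.0205), while TPX2 (-0.049) and CDC20 (0.15) did not pass. The other that rose was AURKA (0.23, adjusted p = 0.00876). The 8 that fell moved by log2 fold changes from -1.11 (CENPE) to -0.22 (KIF11), among them CENPF (-0.81), CDK1 (-0.68), AURKB (-0.54) and UBE2C (-0.46). AURKA and these 6 genes were chosen after their values were seen. The 2 largest falls rest on samples that overlapped DMSO. CENPE had 400 to 1024 counts at 1 µM and 985 to 1782 in DMSO, and CENPF had 2994 to 6438 and 6219 to 8962.

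Set against the DMSO mean in each sample, the S phase median was -0.0089 to 0.020 in DMSO, -0.23 to 0.0085 at 0.3 µM and -0.36 to -0.23 at 1 µM on the log2 scale. On the same scale BLM was -0.53 to -0.38 and RECQL4 -0.48 to -0.29 at 1 µM. In 0.3 µM replicate 3, the S phase median was -0.23, BLM was -0.18 and RECQL4 was -0.0097. The part of the S phase genes in the values of BLM and RECQL4 was not tested.

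**Figure D5:**
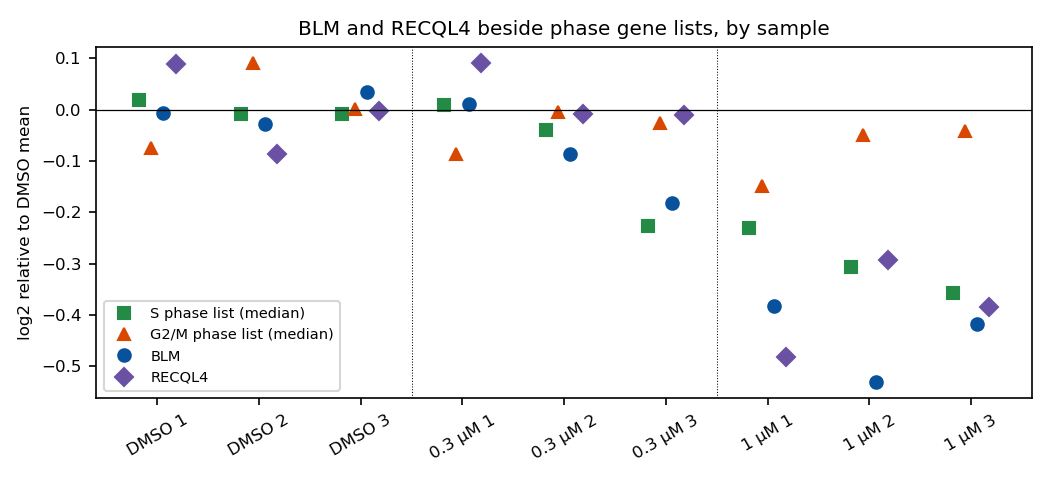
Log2 level relative to the DMSO mean (y axis) in each of the 9 samples (x axis) for BLM, RECQL4 and the medians of the S phase and G2/M lists; symbols are offset sideways within a sample. At 1 µM the S phase median is -0.36 to -0.23 and BLM is -0.53 to -0.38, while the G2/M median is -0.15 to -0.041.

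The 3 protein-coding genes most like each member were searched among 10552 genes by Pearson's r of log2 CPM over the 9 samples. For BLM they were ABCD4 (r = 0.996), CPNE7 (0.988) and CCNL2 (0.986), and for RECQL4 they were PKMYT1 (0.987), C19orf48 (0.981) and SUV39H1 (0.976). These r values include the gap between the 1 µM samples and the rest and are given as a description. For the 6 genes that did not pass, the highest r was lower, from 0.928 (TOP3A with FAM160B2) to 0.946 (WRN with MPDZ). The search covered far more genes than samples, and for every member the highest r was over 0.92.

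Reads from neighbouring genes could bear on some of these counts, because whether strand was used in counting is not settled by the sources. RECQL shares 1567 exonic bases with PYROXD1 on the opposite strand, which averaged 217.9 counts and did not pass at 1 µM (0.28, adjusted p = 0.0939 by edgeR). RECQL5 shares 1520 exonic bases with SMIM5, which averaged 5.2 counts. WRN (115 bases), RECQL4 (198) and RMI2 (260) share exonic bases with genes that averaged at most 0.7 counts. BLM, TOP3A and RMI1 share no exonic base with another gene of the table, by the reference annotation. Of the genes that start back to back with a member, GOLT1B, 112 bases from the start of RECQL, was lower at 1 µM (log2 fold change -0.31, SE 0.074, adjusted p = 0.00982), while RECQL itself was at -0.031. The others that were tested did not pass, among them LRRC14, 147 bases from the start of RECQL4 (0.037, adjusted p = 0.822 by edgeR).

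Because YK-4-279 is used against ETS factors, whose core motif is GGAA, the promoters of the members were read from RefSeq (GRCh38.p14) as the 250 bases before each start. An entry was matched for 5 of the 8, namely BLM, RECQL, RECQL5, TOP3A and RMI1. Stretches are shown for 3 of these, a gene that fell (BLM), its partner in the complex (TOP3A) and a helicase whose treated samples stayed inside the DMSO range (RECQL). Each ends just before the start of the gene in the deposited table and is written on the gene's strand, with GGAA and its reverse complement TTCC in capitals. The stretches differ in length, at 231 bases for BLM, 237 for TOP3A and 111 for RECQL, and hold 5, 6 and 2 GGAA places in that order, so they are not to be compared with each other by eye. CCGGAA occurs at 1 place in the stretch of BLM and at none in the other 2.
BLM, chr15:90717096-90717326, plus strand: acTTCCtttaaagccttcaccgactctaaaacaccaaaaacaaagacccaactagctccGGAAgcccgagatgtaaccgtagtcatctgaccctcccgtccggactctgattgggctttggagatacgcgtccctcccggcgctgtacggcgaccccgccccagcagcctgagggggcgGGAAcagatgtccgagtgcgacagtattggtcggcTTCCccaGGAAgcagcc
TOP3A, chr17:18315008-18315244, minus strand: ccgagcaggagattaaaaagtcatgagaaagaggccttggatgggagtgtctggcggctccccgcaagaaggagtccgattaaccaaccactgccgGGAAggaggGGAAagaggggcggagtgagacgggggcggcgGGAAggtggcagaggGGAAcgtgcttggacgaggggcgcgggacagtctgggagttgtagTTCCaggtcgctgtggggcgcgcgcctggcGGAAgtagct
RECQL, chr12:21501670-21501780, minus strand: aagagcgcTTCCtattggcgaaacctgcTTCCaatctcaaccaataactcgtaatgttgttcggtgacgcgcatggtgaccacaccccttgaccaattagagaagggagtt

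In the full 250 bases, which reach past the stretches shown, GGAA occurred on either strand at 6 places for BLM, 6 for TOP3A, 7 for RECQL, 6 for RECQL5 and 3 for RMI1. Of 35116 promoters, 92.7% held it at least once, with a median of 3 places. The longer ETS core CCGGAA, which contains GGAA, occurred at 1 place for BLM, 3 for RECQL and 1 for RECQL5 and at none for TOP3A or RMI1, beside 14.5% of all promoters. CCAAT, the NF-Y box, occurred at 3 places for BLM, 5 for RECQL and 1 for RECQL5, beside 32.0% of all promoters. The CHR letters TTTGAA (13.3%) and TTTCGAA (0.51%) were in none of the 5 windows. Neither were the E2F letters TTTGGCGC (0.55%) and TTTCCCGC (1.39%, which overlap TTCC). Only these exact letters before the start were searched, so shorter or varied forms of these sites were not counted and their absence is not shown. Of the 3 promoters with CCGGAA, that of BLM belongs to a gene that fell and those of RECQL and RECQL5 to genes that did not pass. RECQL4, which also fell, had no matched entry. The window of RECQL also covers the start of GOLT1B, 112 bases from that of RECQL, and GOLT1B was lower at 1 µM. The part of these motifs in the changes was not tested.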

How the data were processed

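The authors deposited, for each gene and sample, a read count that was not normalized and an FPKM value. The methods describe alignment to GRCh38 with Hisat2 and counting with HTseq, whereas the submitters' processing notes list HISAT2 2.0.5, featureCounts 1.5.0-p3 and DESeq2 1.20.0. Library kits also differ between the methods and the labels, and use of strand in counting is not given in the sources used here. The table's group means, log2 fold changes and p-values of the authors' own comparisons were not used. The methods describe fewer replicates than the 3 per group in the labels, which do not name separate cultures, so p-values measure only the spread between these samples.

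Counts of the groups compared were filtered (filterByExpr, minimum count 10), normalized by TMM and tested with edgeR 4.0.16 in R 4.3.3 (glmQLFit, glmQLFTest). Benjamini-Hochberg adjustment covered every gene tested. Intervals are 95%. Alternatives were DESeq2 1.42.0, RLE factors, no filter, a replicate block, protein-coding genes only, omission of each sample, a fit of all 9 samples, limma 3.58.1 on log2(FPKM + 0.1), and a 2-fold cutoff. Per-sample values relative to DMSO used log2(CPM + 0.5), and likeness used genes of at least 5 CPM with a prior count of 2. The steps were run on simulated counts drawn from the trend of spread over genes, without each gene's own spread. The outcome is not given here and is not used as support. Replicate pairs differed by 3.20 to 10.7 chi-square units per degree of freedom, so no sample was counted as a duplicate.

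The members and lists were chosen with earlier results of these data known. All members were named, and of the lists the genes with an adjusted p under 0.05 at 1 µM against DMSO (all genes in lists of at most 7). For the S and G2/M lists the 3 most abundant were named. Values of some list genes are not reported here.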

Additional observations from a re-analysis of the deposited data

How the results depend on the processing

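At 1 µM against DMSO, 2 members were lower and 0 higher under every alternative run, with 0 past 1.5-fold or 2-fold. Leaving out each sample gave log2 fold changes of -0.46 to -0.40 for BLM (adjusted p at most 0.0142 by edgeR) and -0.43 to -0.32 for RECQL4 (at most 0.0180). At 0.3 µM 0 members passed under every alternative run. Between the doses, 1 to 2 members passed when a sample was left out and 1 passed by limma on log2(FPKM + 0.1), where BLM was at -0.35 (adjusted p = 0.0536); the cause was not tested.

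Signs turned only for values that did not pass. At 1 µM this was RECQL when a sample was left out (-0.099 to 0.039). At 0.3 µM the ranges over samples left out that crossed 0 were -0.12 to 0.016 for RECQL, -0.0087 to 0.086 for RECQL4, -0.17 to 0.015 for RECQL5, -0.094 to 0.024 for TOP3A, -0.16 to 0.0074 for RMI1 and -0.13 to 0.12 for RMI2. Between the doses they were -0.046 to 0.049 for WRN, -0.14 to 0.053 for RECQL5 and -0.053 to 0.057 for RMI1, and WRN was at -0.013 with protein-coding genes only.

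Over all genes, edgeR called 1198 higher and 1554 lower at 1 µM, and 655 and 1028 without DMSO replicate 3. At 0.3 µM it called 0, and 30 with no filter (19 higher and 11 lower). Same-numbered samples deviated together weakly at most (r from -0.022 to 0.082, beside -0.069 to 0.038 for different numbers), so the main fit did not take the numbers as pairs. Between DMSO and 0.3 µM, however, the same-numbered r (0.020 to 0.082) all lay above the others (-0.069 to 0.0056). With the replicate number as a block, 853 genes were higher and 1267 lower at 1 µM, and 2 members were lower. The share of promoters with GGAA, 92.7%, was 76.5% for at least 2 places and 14.5% for CCGGAA. The number of samples, 3 a group, limits these tests: the interval for RMI2 at 1 µM (-0.55 to 0.057) includes the fall fitted for BLM.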
